A study of Mus musculus with 6 samples.

Results

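The transcripts of the mitochondrial ribosomal proteins were examined in E13.5 mouse cortex with and without deletion of Ybx1. They were taken as every row of the gene table whose symbol starts with Mrpl or Mrps followed by a number, which gave 78 of the 17348 genes listed. Of these, 49 were named for the large subunit (Mrpl) and 29 for the small subunit (Mrps). All 78 passed the filter on low counts that left 13340 genes for testing, and the lowest estimated count of any of them in any library was 95. RNA was sequenced from dissected cortex of 3 WT and 3 cKO embryonic samples. The cKO genotype was Nestin-Cre with both Ybx1 alleles floxed, so that a block of Ybx1 exons is removed in Nestin-expressing neural progenitors and the cells they give rise to. Blood, vessel and meningeal cells do not arise from these progenitors and were not separated from the tissue. The WT samples were control littermates, which the study describes as wild type in its methods and as carrying the same floxed alleles without Cre elsewhere. No agent was given to either group, and which litter each sample came from is not stated. In bulk tissue, a change in the share of a cell type and a change in transcript per cell cannot be told apart.

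Mitochondrial ribosomes translate the few proteins encoded in mitochondrial DNA, all of which are core parts of the respiratory chain and ATP synthase. All of the protein subunits of this ribosome are encoded in the nucleus, made on cytosolic ribosomes and imported, while its RNA comes from mitochondrial DNA. The large subunit forms peptide bonds and sits on the inner membrane, and the small subunit decodes the messenger RNA. Some of the subunits descend from proteins of the bacterial ribosome, and others were gained in the mitochondrial lineage.

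Ybx1 was measured first, because it checks the labels. Its normalised level (CPM, counts scaled to library size) was 1021, 527 and 1219 in the WT libraries, in the order of their replicate numbers, and 83.0, 117 and 147 in the cKO libraries. The cKO libraries lay below all WT libraries, and the library labelled WT replicate 2 lay between the others. In the quasi-likelihood test of edgeR, Ybx1 differed by -2.998 on the log2 scale (SE 0.33, Benjamini-Hochberg adjusted p-value 0.128), and without WT replicate 2 the adjusted p-value was 0.0206 (edgeR). Library totals lay between 15907486 and 16282921 counts. All 9 progenitor and all 10 neuron markers of the cortex had counts in every library. The summed level of 8 epidermis markers was 275 CPM in cKO replicate 3 and at most 11.9 CPM elsewhere. That of 8 genes listed for meninges or choroid plexus was 518 CPM there and at most 17.1 CPM elsewhere. In the latter list Col1a1 (128 CPM), Col1a2 (144), Col3a1 (181), Dcn (26.7) and Lum (37.3) were raised there. Foxc1, Foxd1 and Ttr were not (1.085, 0.36 and 0.0 CPM). In the epidermis list Krt10 was not raised (6.87 CPM) and Krt1 hardly (1.51 CPM, at most 1.44 elsewhere). Which tissue these transcripts came from was not tested.

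The start regions of some members are shown first, because some short strings were found in a larger share of member windows than of all tested windows. Each was present in a minority of member windows, and the choice of genes did not use these letters. RefSeq (GRCm38.p6) gave a window from 250 bases before to 50 bases after the transcript start for 69 of the 78 genes, 75 windows in all. The letters CCGGAAG, the core bound by ETS factors such as GABPA, were present on either strand in 26 of 75 windows (34.7%), against 16.4% of the windows of all genes tested and 8.86% of all 32851 windows. AAGATGGC, the core bound by YY1, was present in 12 of 75, against 4.13% and 2.75%, and GCATGCGC, which is part of the site of NRF1, in 8 of 75 (10.7%), against 4.95% and 2.71%. GABPA, YY1 and NRF1 are known regulators of nuclear genes for mitochondrial proteins. TATAAA (6.67% of member windows, 6.94% of those of tested genes), CCAAT (30 of 75 windows and 37.9%) and GGGCGG (52.0% and 62.1%) were also counted. None of these 6 strings contains another, but CCGGAAG and AAGATGGC can share bases, and most of them can overlap their own reverse complement. They were chosen after counts for them and for shifted versions had been seen. The following stretches run from 100 bases before to 20 bases after a start, with CCGGAAG, GCATGCGC, AAGATGGC and their reverse complements in capitals. They belong to the most abundant member (Mrpl52), to members described below (Mrpl33, Mrpl57, Mrps18a) and to a member with several NRF1 strings (Mrpl32). Each of them holds such a string. Of 75 stretches of this size, 19 held CCGGAAG, 5 held GCATGCGC and 2 held AAGATGGC. Those of Mrpl49 and Mrps36, also described below, held none of them.
Mrpl52, chr14:54426809-54426928, plus strand: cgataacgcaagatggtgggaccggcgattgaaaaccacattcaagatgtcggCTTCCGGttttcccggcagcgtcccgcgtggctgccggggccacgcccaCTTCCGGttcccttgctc
Mrpl33, chr5:31613851-31613970, plus strand: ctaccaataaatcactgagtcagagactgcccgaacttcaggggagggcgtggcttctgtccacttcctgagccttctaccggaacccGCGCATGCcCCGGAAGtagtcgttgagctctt
Mrpl57, chr14:57826139-57826258, plus strand: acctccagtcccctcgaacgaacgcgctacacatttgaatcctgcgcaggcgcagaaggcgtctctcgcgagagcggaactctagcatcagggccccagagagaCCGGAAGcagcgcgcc
Mrps18a, chr17:46110904-46111023, plus strand: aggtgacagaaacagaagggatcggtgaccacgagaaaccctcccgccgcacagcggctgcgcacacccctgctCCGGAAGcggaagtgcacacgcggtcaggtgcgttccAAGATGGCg
Mrpl32, chr13:14613018-14613137, minus strand: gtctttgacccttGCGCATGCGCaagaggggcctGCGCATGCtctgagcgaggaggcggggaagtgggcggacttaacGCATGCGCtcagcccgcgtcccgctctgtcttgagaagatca

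In these stretches CCGGAAG lay 3 bases before the start in Mrpl33 and 26 bases before it in Mrps18a, and Mrpl52 held it at 47 bases before and again just after the start. In the full windows, 15 large and 11 small subunit genes held CCGGAAG. A match of letters is a description and not a binding site.

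To ask whether loss of Ybx1 changed these transcripts, each was compared between 3 cKO and 3 WT libraries. No member was called. At an adjusted p-value under 0.05, 0 of 78 were higher and 0 of 78 were lower by edgeR, DESeq2 and limma-voom, as were 0 of all 13340 genes in the edgeR test (0.0%). At an unadjusted p-value under 0.05, 0 of 78 were higher and 0 were lower by each of these 3 tools, whereas 1.75% of all genes tested were higher and 1.81% were lower in the edgeR test. Single libraries changed this count in the edgeR test, to 2 higher without WT replicate 2 (Mrpl49 and Mrps28), 1 without WT replicate 3 (Mrpl57) and 2 without cKO replicate 1 (Mrpl49 and Mrps34), none of them after adjustment. In the same fits 1.44%, 0.895% and 4.23% of all genes tested were higher. The lowest unadjusted edgeR p-value of a member was 0.0917 and every member had an adjusted p-value of 0.99998. Estimates were small. Log2 fold changes ranged from -0.17 to 0.23, and their median size without sign was 0.060, against 0.078 over all genes tested. The 95% interval of the difference lay within a 2-fold change in either direction for 78 of 78 members (91.5% of all genes tested) and within a 1.5-fold change for 77 of 78 (78.2%). The exception was Mrps28, named here after its values were seen, whose interval reached from -0.30 to 0.69 on the log2 scale.

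**Figure D1:**
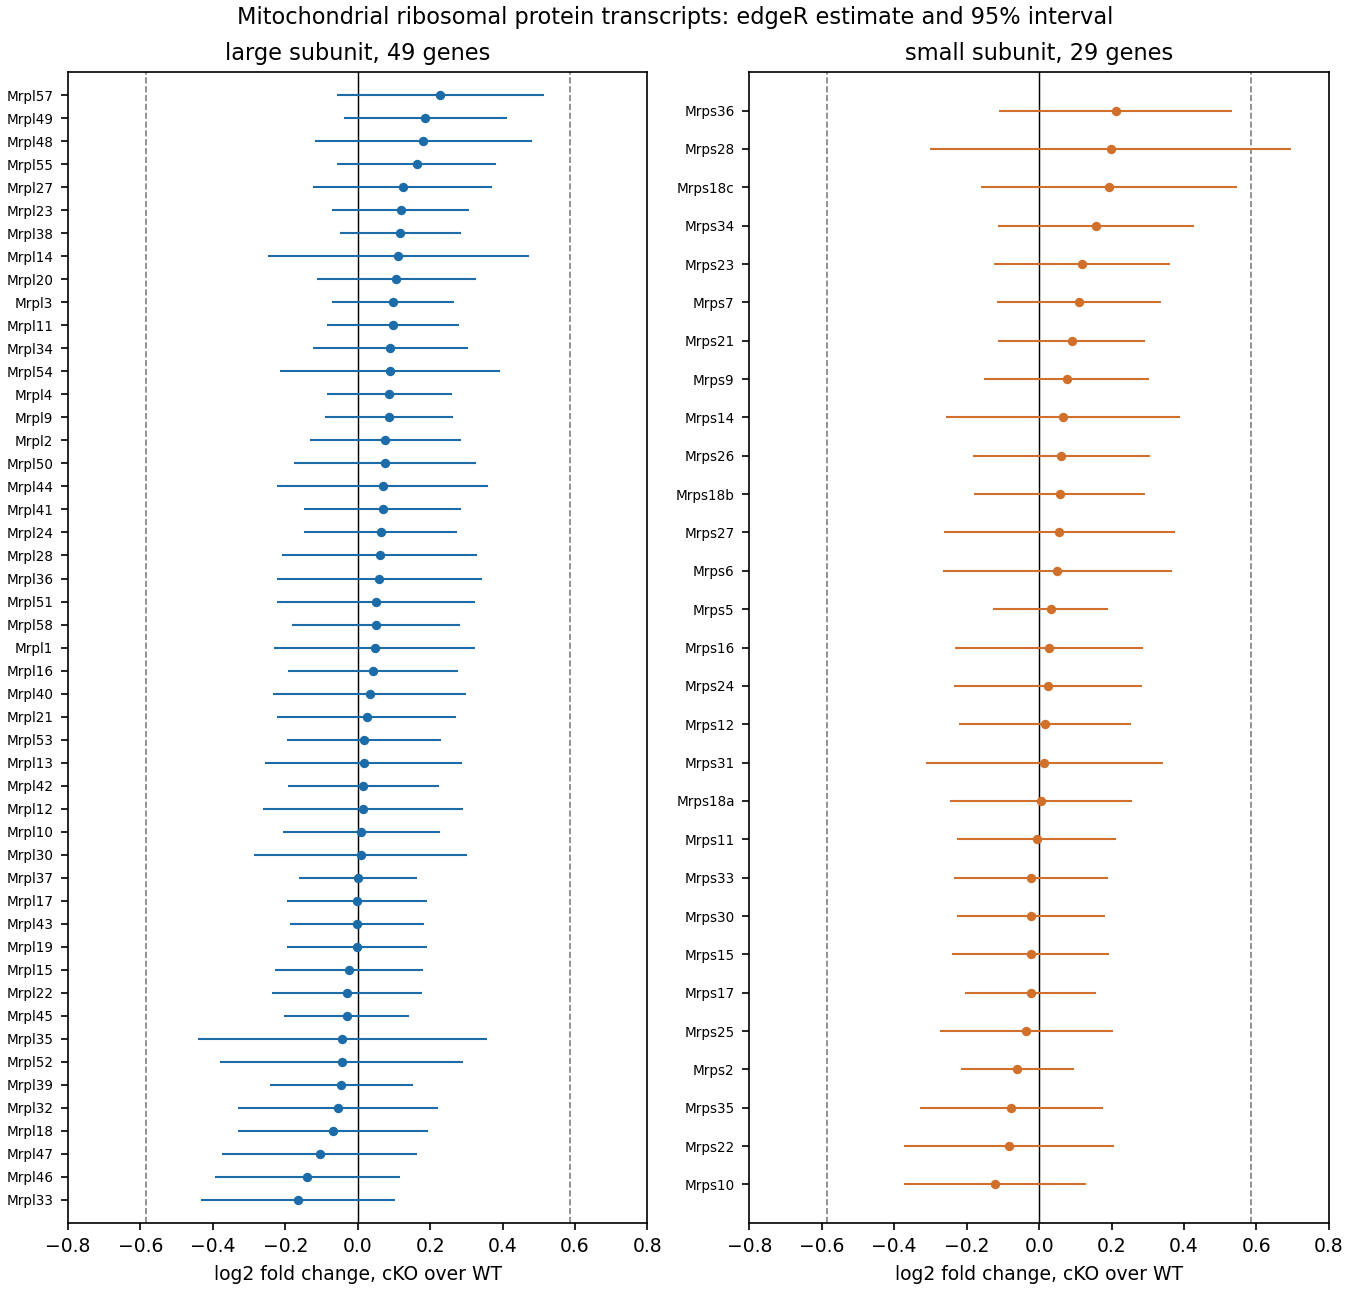
Log2 fold change (cKO over WT, horizontal axis) of the 49 large subunit genes (left) and the 29 small subunit genes (right). Points are edgeR estimates, bars their 95% intervals, and dashed lines mark a 1.5-fold change; every interval includes 0, and only that of Mrps28 crosses a dashed line.

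The signs were not balanced, although no single gene passed. Positive estimates were found for 54 of 78 members (69.2%), for 35 of 49 in the large and 19 of 29 in the small subunit, against 50.8% of all genes tested. The median log2 fold change was 0.047 for the large and 0.027 for the small subunit, against 0.0019 for all genes tested. Leaving out a single library could turn the sign of these medians. Without WT replicate 1 they were -0.011 and -0.032, and without cKO replicate 2 they were -0.0028 and 0.0047. Without WT replicate 2 and cKO replicate 3 together they were 0.076 and 0.054. In 3 large subunit genes (Mrpl23, Mrpl38 and Mrpl55) every cKO library lay above every WT library by CPM, as in 4.21% of all genes tested. With counts divided by transcript length (TPM, described below), Mrpl23 and Mrpl55 overlapped. For Mrpl23, WT replicate 3 had 166.98 and cKO replicate 3 166.87 TPM. For Mrpl55, WT replicate 3 had 59.39 and cKO replicate 2 59.11 TPM. By CPM no member had every cKO library below every WT library, as 4.83% of all genes did.

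Among large subunit genes, Mrpl49 (Entrez gene 18120, chr19:6053630-6057755, GRCm38), a subunit found in mitochondrial ribosomes and not in bacterial ones, had the lowest p-value. It gave 42.2, 50.3 and 43.0 CPM in the WT and 48.4, 56.0 and 49.9 CPM in the cKO libraries. WT replicate 2 lay above cKO replicates 1 and 3, so the groups overlapped by CPM. The log2 fold change was 0.19 (SE 0.10, unadjusted edgeR p-value 0.0917). It was 0.12 without cKO replicate 2, 0.27 without WT replicate 2 and 0.29 without WT replicate 2 and cKO replicate 3 together. Its exons overlap those of Syvn1 on the other strand, and whether counting used strand is not stated.

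Mrpl57 (chr14:57826228-57829087), another mitochondria-specific subunit, had the highest estimate. Its levels were 14.9, 17.7 and 19.7 CPM in WT and 18.8, 21.8 and 20.6 CPM in cKO, with a log2 fold change of 0.23 (SE 0.12, unadjusted edgeR p-value 0.103). WT replicate 3 lay above cKO replicate 1 by CPM, and without WT replicate 1 the log2 fold change was 0.13. Mrpl55 (chr11:59202486-59206138) gave 16.4, 18.1 and 19.3 CPM in WT and 19.7, 19.7 and 20.9 CPM in cKO, a log2 fold change of 0.16 (SE 0.10). Its lowest cKO CPM was just above its highest WT CPM, and without WT replicate 1 the log2 fold change was 0.11. Mrpl38 (chr11:116131817-116138868) was measured at 34.3, 35.5 and 35.1 CPM in WT and 38.3, 38.5 and 37.0 CPM in cKO. The groups did not overlap, and the log2 fold change was 0.12 (SE 0.07, unadjusted edgeR p-value 0.141).

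Mrpl23, whose bacterial homologue lies at the exit of the peptide tunnel, gave 28.6, 30.0 and 31.7 CPM in WT and 32.1, 34.0 and 32.0 CPM in cKO. The groups did not overlap by CPM, with a gap between WT replicate 3 and cKO replicate 3 that is small against the SD of 1.58 CPM within WT. Mrpl33 (chr5:31613951-31622644) had the lowest estimate of all members. It gave 13.6, 16.9 and 14.0 CPM in WT and 12.5, 13.47 and 13.7 CPM in cKO, a log2 fold change of -0.17 (SE 0.12, unadjusted edgeR p-value 0.192). Without WT replicate 2 it was -0.060, and without that library and cKO replicate 3 together -0.086. WT replicate 2 lay above the other libraries, and WT replicate 1 was level with cKO replicates 2 and 3. Mrpl48 completed the 7 large subunit genes of lowest p-value, and is described with its transcript length below.

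Of the small subunit genes, the lowest p-value was that of Mrps36 (chr13:100735940-100744659). Its product carries a ribosomal name but is known as a part of the oxoglutarate dehydrogenase complex and is not in the ribosome structures. It gave 11.0, 14.1 and 14.3 CPM in WT and 13.6, 14.9 and 17.2 CPM in cKO, a log2 fold change of 0.21 (SE 0.14, unadjusted edgeR p-value 0.167). WT replicate 1 was the lowest and cKO replicate 3 the highest library, the groups overlapped, and the log2 fold change was 0.11 with either of these left out. Mrps34 gave 15.8, 15.2 and 16.7 CPM in WT and 15.4, 20.1 and 17.7 CPM in cKO (log2 fold change 0.16, SE 0.12), and without cKO replicate 2 the log2 fold change was 0.057. Its exons overlap those of Nme3 on the same strand, so reads may be shared. Mrps23 (0.12, SE 0.11), Mrps7 (0.11, SE 0.10) and Mrps21 (0.09, SE 0.09) had positive and Mrps10 (-0.12, SE 0.11) a negative log2 fold change, with overlapping groups in each case. With single libraries left out these ranged from 0.068 to 0.21 for Mrps23, 0.062 to 0.18 for Mrps7, 0.032 to 0.12 for Mrps21 and -0.18 to -0.043 for Mrps10, and Mrps10 was at 0.024 without WT replicate 2 and cKO replicate 3 together.

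The small subunit has a set of paralogs, Mrps18a, Mrps18b and Mrps18c, which are named after the bacterial protein S18 and take different places. Mrps18c is held to be the counterpart in the small subunit, Mrps18b lies elsewhere in that subunit, and Mrps18a lies in the large subunit. In the grouping by origin used below, Mrps18a and Mrps18c were counted as bacterial homologues and Mrps18b as mitochondria-specific. Mrps18c gave 11.99, 16.4 and 13.99 CPM in WT and 13.53, 17.9 and 17.1 CPM in cKO, a log2 fold change of 0.19 (SE 0.15, 95% interval -0.16 to 0.55) that ranged from 0.092 to 0.31 with single libraries left out. Mrps18b stayed between 18.5 and 22.2 CPM in all 6 libraries and Mrps18a between 17.0 and 21.2 CPM, with log2 fold changes of 0.06 (SE 0.10) and 0.0060 (SE 0.11). Per transcript length the order was different, with a mean over the 6 libraries of 140 TPM for Mrps18c, 70.0 TPM for Mrps18a and 51.1 TPM for Mrps18b. TPM divides a gene's counts by its transcript length and is the scale used here for levels between genes.

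Other members with a role beyond the common one had estimates near 0. Mrpl12, which also binds the mitochondrial RNA polymerase, measured 43.8 ± 4.60 CPM in WT and 44.3 ± 5.71 CPM in cKO (SD, n = 3 each). Its log2 fold change was 0.015, with a 95% interval from -0.26 to 0.29. Mrpl58, a peptidyl-tRNA hydrolase that became a ribosomal subunit, had a log2 fold change of 0.050 (95% interval -0.18 to 0.28). Mrps30, which lies in the large subunit despite its name, had -0.022 (95% interval -0.23 to 0.18).

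To set the subunits against each other, the CPM of their members were summed in each library. The sum of the 49 large subunit genes was 1445, 1669 and 1571 CPM in WT and 1516, 1689 and 1619 CPM in cKO. The means were 1562 ± 112 in WT and 1608 ± 87.3 in cKO (SD, n = 3 each), so the difference was smaller than either SD. For the 29 small subunit genes the sums were 751, 874 and 826 CPM in WT and 785, 866 and 836 CPM in cKO, with means of 817 ± 62.1 and 829 ± 41.0. In cKO the sums stood at 103% of WT for the large and 101% for the small subunit, or 0.042 and 0.020 higher on the log2 scale. Leaving out a single library turned this direction, to -0.011 and -0.037 without WT replicate 1 and, for the small subunit, to -0.013 without cKO replicate 2. Without WT replicate 2 and cKO replicate 3 together the values were 0.087 and 0.065. No test is given for a sum over the members, as the genes were chosen with results of these data known.

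The ratio of the sums was steadier than the sums. It was 1.92, 1.91 and 1.90 in WT and 1.93, 1.95 and 1.94 in cKO, so that every cKO library lay above every WT library, at means of 1.91 ± 0.0119 and 1.94 ± 0.00999 (SD, n = 3 each). On the TPM scale this order was lost, with 1.95, 1.95 and 1.99 in WT and 1.93, 1.97 and 1.95 in cKO, and the mean was lower in cKO (1.96 ± 0.0209 and 1.95 ± 0.0206). The direction of the ratio of sums therefore differed between the CPM and TPM scales. The ratio of the median TPM of the subunits was higher in cKO (1.15 ± 0.0454 in WT and 1.20 ± 0.0315 in cKO), with overlapping libraries. With subunits drawn by place in the ribosome (Mrps30 and Mrps18a moved to the large subunit, Mrps36 left out), the medians of the log2 fold change were 0.042 over 51 large and 0.029 over 26 small subunit genes. The 46 members counted here as bacterial homologues had a median of 0.029. The 31 counted as mitochondria-specific, Mrpl55 among them, had one of 0.050, and other assignments of single genes were not tried. Differences between these groups were not tested.

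**Figure D2:**
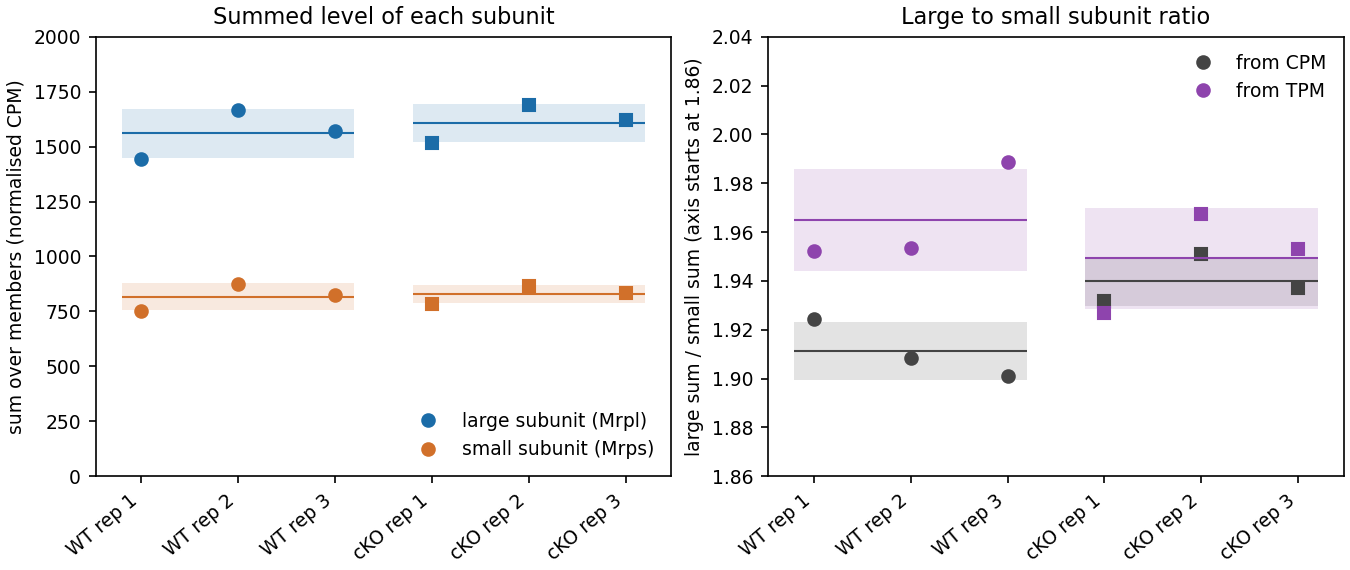
Left, summed normalised CPM of the large and small subunit genes in each library; right, the ratio of the sums from CPM and from TPM, on an axis that does not start at 0. Circles are WT and squares cKO libraries, lines the group means and bands 1 SD (n = 3); the sums overlap between genotypes, and the CPM ratios (1.90 to 1.92 in WT, 1.93 to 1.95 in cKO) do not overlap whereas the TPM ratios do.

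The members varied together from library to library, across genotypes. WT replicate 1 was the lowest of the 6 libraries for 46 of 78 members and cKO replicate 1 for 17, while the highest value fell in WT replicate 2 for 30 and in cKO replicate 2 for 26. The median deviation of the 78 members from their 6-library mean was -0.13, 0.076 and 0.0037 (log2) in the WT libraries, in order, and -0.047, 0.096 and 0.043 in cKO. The gap between WT replicates 1 and 2 was thus larger than the difference between genotypes. Transcript length moved with this pattern, and so in part did the cell type markers. The summed level of the progenitor markers was lowest in WT replicate 1 (2816 CPM) and cKO replicate 1 (2752 CPM). It was highest in cKO replicate 2 (3331 CPM). That of the neuron markers was highest in WT replicate 1 (5926 CPM) and cKO replicate 1 (6075 CPM). The median effective length of the members, the length the counting tool divides by, was 796 bases against 2788 bases for all genes tested, and 65 of the 78 were among the 3227 genes of at most 1690 bases. These short genes had median deviations of -0.084, 0.027 and -0.0054 in WT and -0.029, 0.060 and 0.037 in cKO. In a fit corrected for length, added after the data were seen, the medians were 0.00081 for the large and -0.026 for the small subunit, against -0.013 for all genes tested in that fit. The part of length in the result was not otherwise tested, and that of cell type shares was not tested.

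Beside the members, 79 nuclear genes of oxidative phosphorylation subunits had a median log2 fold change of 0.088, with 3 higher and 0 lower at an unadjusted edgeR p-value under 0.05, and 81 cytosolic ribosomal protein genes one of -0.040, with 0 higher and 2 lower, against 1.75% higher and 1.81% lower over all genes tested. In WT replicate 1 the medians of these lists deviated by -0.20 and -0.22. Within genotypes, the median SD of a member was 0.13 (log2), against 0.14 for all genes tested.

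**Figure D3:**
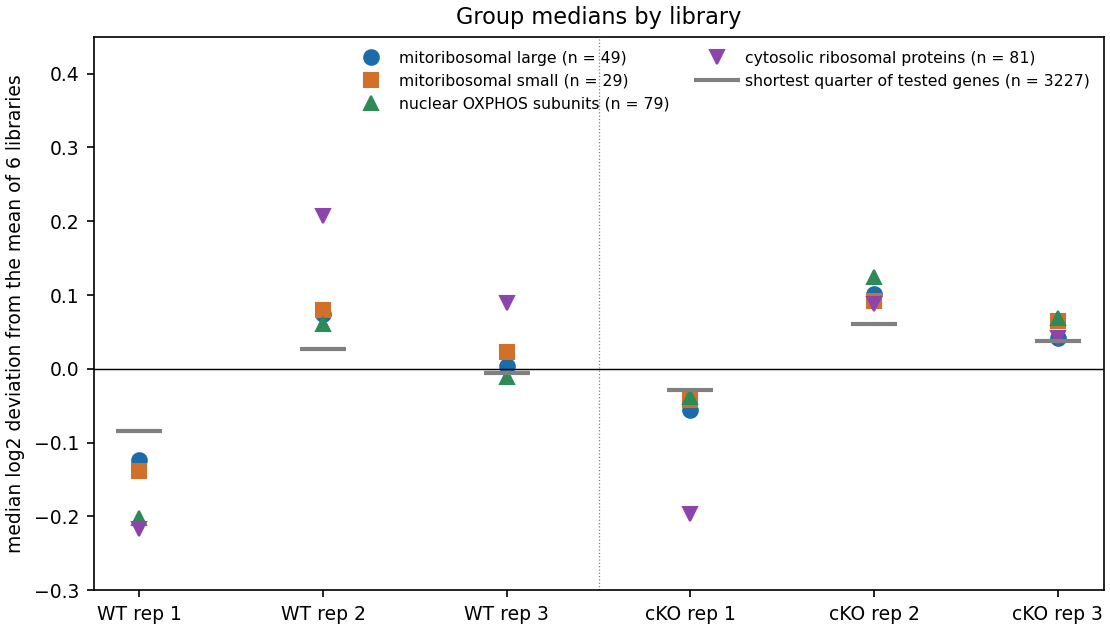
Median log2 deviation of each gene group from the mean of the 6 libraries (vertical axis) in each library (horizontal axis, WT left of the dotted line). Both mitoribosomal subunits lie lowest in WT replicate 1 (-0.12 and -0.14) and highest in cKO replicate 2 (0.10 and 0.092), and the short genes are also lowest and highest in these libraries, at -0.084 and 0.060.

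Although each subunit holds its proteins in fixed numbers, the levels of the transcripts differed widely. Mean TPM over the 6 libraries ranged from 11.7 for Mrpl17 to 301 for Mrpl52, a 25.8-fold range, with a median of 68.8. In the large subunit the highest levels were those of Mrpl52, Mrpl42 (233 TPM) and Mrpl13 (185 TPM), and the lowest those of Mrpl17, Mrpl35 (14.1 TPM) and Mrpl57 (19.0 TPM). In the small subunit they were those of Mrps21 (279 TPM), Mrps18c (140 TPM) and Mrps33 (139 TPM), and of Mrps25 (23.5 TPM), Mrps14 (25.7 TPM) and Mrps31 (32.5 TPM). Neighbours such as Mrps18c and Mrps33 did not differ beyond their SD (in WT 15.5 and 9.62 TPM, n = 3). Length enters this scale directly. By counts, Mrpl17 had 35.8 CPM and Mrpl52 20.4 CPM in WT, with effective lengths of 6434 and 141 bases. The TPM of the shortest transcripts, with a small effective length, is less certain. The order of the 78 members was nearly the same in both genotypes, with a Spearman correlation of 0.990 between mean WT and mean cKO TPM across genes, which are not independent replicates. No member moved by more than 11 ranks. Median TPM was 73.1 for large and 61.8 for small subunit genes. It was 74.9 for members counted as bacterial homologues and 62.9 for those counted as mitochondria-specific.

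**Figure D4:**
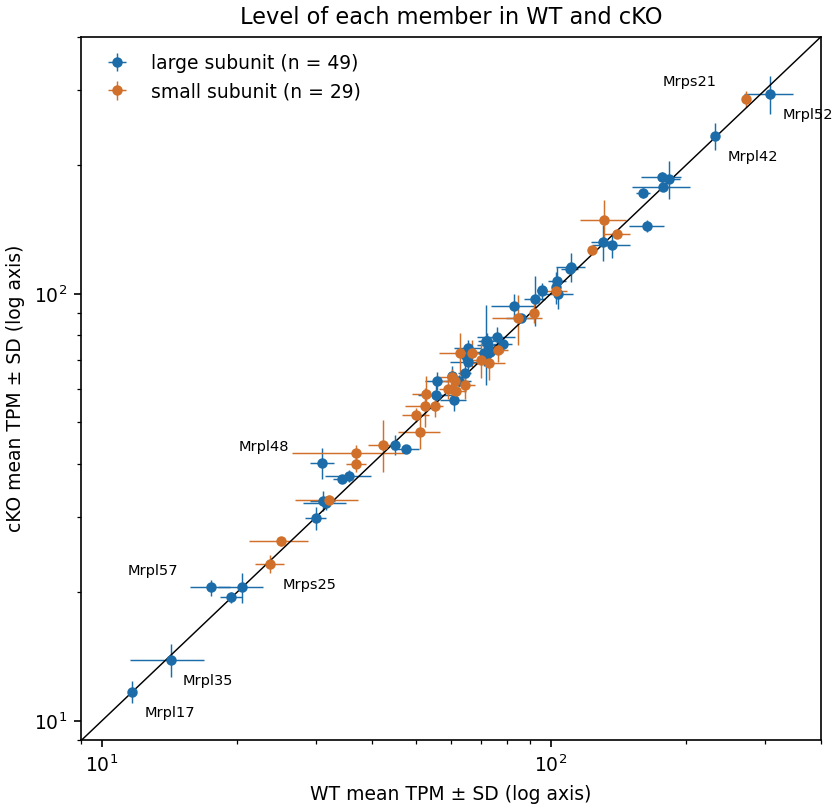
Mean TPM of each member in WT (horizontal log axis) and cKO (vertical log axis), with SD over 3 libraries as bars, for 49 large and 29 small subunit genes. The points follow the line of equal level from Mrpl17 to Mrpl52 (11.7 and 301 TPM over all 6 libraries), and Mrpl48 stands above it.

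Among the members, 1 gene had the largest gap between its log2 ratios by TPM and by CPM. It was singled out after its values were seen. Mrpl48 (Entrez gene 52443, chr7:100545779-100608301, GRCm38) encodes a mitochondria-specific protein of the large subunit. By counts it gave 17.4, 23.2 and 20.05 CPM in WT and 20.4, 23.6 and 24.8 CPM in cKO, with a log2 fold change of 0.18 (SE 0.13, unadjusted edgeR p-value 0.198) and overlapping groups. The log2 fold change was 0.091 when WT replicate 1 was left out and 0.29 when WT replicate 2 was, the extremes over single libraries. By TPM it gave 29.5, 33.2 and 30.4 in WT and 36.9, 39.9 and 43.6 in cKO, so that every cKO library lay above every WT library. Other members with overlapping CPM also parted by TPM, higher in cKO for Mrpl3, Mrpl9, Mrpl11, Mrpl49 and Mrpl57, or lower for Mrpl33 and Mrpl46. Mrpl49 had 61.5 to 70.5 TPM in WT and 72.7 to 78.7 TPM in cKO. The share of all genes that parted by TPM was not counted, so how unusual these separations are is not known. The estimated effective length behind the TPM of Mrpl48 was 1312, 1416 and 1363 bases in WT and 1210, 1206 and 1202 bases in cKO, again with no overlap. That length is an average over the transcripts of the gene, weighted by their estimated shares, and the table gives no transcript shares to check it. Lengths did not overlap for many other members either, most of them slightly longer in cKO. Examples are Mrpl2 (744 to 752 and 753 to 757 bases), Mrpl4 (1014 to 1020 and 1021 to 1027), Mrpl9, Mrpl38 and Mrps25. Those of Mrps31 were slightly shorter in cKO (1303 to 1305 and 1292 to 1301 bases). The share of all genes with such lengths was not counted, so a lack of overlap alone does not set Mrpl48 apart. The range of lengths over libraries, at 16.6% of their mean, was larger for Mrpl48 than for any other member. In limma on log2(TPM + 1) the log2 fold change of Mrpl48 was 0.36, with an unadjusted p-value of 0.0042 and an adjusted p-value of 0.999. Mrpl48 was the only member whose log2 ratios by TPM and by CPM were apart by over 0.1, as 2.62% of all genes tested were, and the next member was apart by 0.064. Its exons overlap those of Rab6a on the other strand, and RefSeq gives it several starts. The 4 start stretches, from 100 bases before to 20 bases after each and with capitals as above, were as follows.
Mrpl48, chr7:100608282-100608401, minus strand: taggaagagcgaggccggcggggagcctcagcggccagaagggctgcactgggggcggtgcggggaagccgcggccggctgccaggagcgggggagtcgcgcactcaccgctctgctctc
Mrpl48, chr7:100607603-100607722, minus strand: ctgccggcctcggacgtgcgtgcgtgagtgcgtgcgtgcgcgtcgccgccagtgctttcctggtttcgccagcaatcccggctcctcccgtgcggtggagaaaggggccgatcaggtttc
Mrpl48, chr7:100591395-100591514, minus strand: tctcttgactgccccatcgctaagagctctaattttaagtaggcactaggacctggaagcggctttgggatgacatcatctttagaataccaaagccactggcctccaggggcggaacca
Mrpl48, chr7:100583111-100583230, minus strand: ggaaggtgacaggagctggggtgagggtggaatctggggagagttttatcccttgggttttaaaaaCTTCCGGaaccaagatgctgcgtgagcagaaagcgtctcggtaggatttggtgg

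Of these, the start furthest downstream holds CCGGAAG at 34 bases before it.

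**Figure D5:**
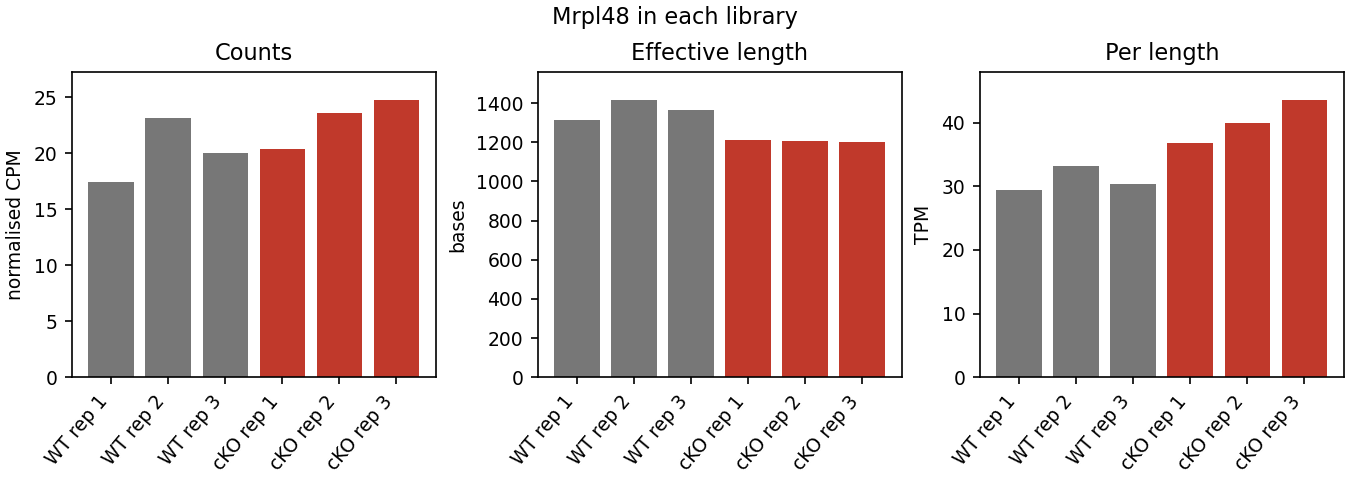
Mrpl48 in each of the 3 WT (grey) and 3 cKO (red) libraries, as normalised CPM, as estimated effective length in bases and as TPM, with bars starting at 0. The CPM overlap between genotypes, whereas the lengths (1312 to 1416 bases in WT, 1202 to 1210 in cKO) and the TPM do not.

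The rest of the pathway was compared in the same fit. Of 5 mitoribosomal proteins whose symbols do not carry the Mrp name, 0 passed at an unadjusted edgeR p-value under 0.05. Dap3, a GTP-binding protein of the small subunit, gave 69.7, 75.5 and 73.9 CPM in WT and 78.1, 77.1 and 75.8 CPM in cKO, a log2 fold change of 0.08 (SE 0.06) without overlap. Ptcd3 (0.039), Chchd1 (0.049) and Aurkaip1 (-0.0075), also of the small subunit, and Gadd45gip1 (-0.078), of the large subunit, had log2 fold changes with 95% intervals that included 0. Among the 16 translation and membrane insertion factors listed, 15 were tested and 0 passed in either direction. The lowest p-values were those of Mtif2, the initiation factor that brings the first tRNA (log2 fold change 0.10, SE 0.07), and Gfm1, an elongation factor (0.12, SE 0.09). With single libraries left out these ranged from 0.060 to 0.13 and from 0.074 to 0.20.

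For 27 ribosome assembly genes the median log2 fold change was 0.035 and 0 passed at an unadjusted edgeR p-value under 0.05. Mettl17, an assembly factor of the small subunit, gave 19.96, 17.1 and 19.5 CPM in WT and 24.7, 21.7 and 19.2 CPM in cKO (log2 fold change 0.21, SE 0.12), with cKO replicate 3 inside the WT range. Mrm2, which methylates the large ribosomal RNA, gave 7.91, 8.23 and 8.93 CPM in WT and 6.61, 7.58 and 7.78 CPM in cKO (-0.19, SE 0.13), without overlap. The 20 mitochondrial aminoacyl-tRNA synthetase and amidotransferase genes had a median of -0.012, again with 0 passing, and the lowest p-values were those of Cars2 (-0.16, SE 0.09) and Qrsl1 (-0.15, SE 0.12). With single libraries left out, the log2 fold changes ranged from 0.12 to 0.30 for Mettl17, -0.24 to -0.11 for Mrm2, -0.19 to -0.11 for Cars2 and -0.23 to -0.050 for Qrsl1.

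Nor did genes upstream of the ribosome pass. In 9 genes of mitochondrial transcription and DNA maintenance 0 passed at an unadjusted edgeR p-value under 0.05, with log2 fold changes of 0.06 (SE 0.10) for Tfam, which packages mitochondrial DNA, and 0.11 (SE 0.19) for Polg2, a subunit of its polymerase. In 10 nuclear regulators 0 passed and 9 had negative estimates, against 6566 of all 13340 genes tested. The median of the 10 was -0.028, and whether they changed together was not tested. Gabpb1, the partner of GABPA, had -0.10 (SE 0.09), or -0.013 without cKO replicate 1 and -0.18 without cKO replicate 2. Ppargc1b, a coactivator, was low, at 1.44, 1.42 and 1.06 CPM in WT and 1.93, 1.504 and 3.19 CPM in cKO. Its log2 fold change was 0.75 (SE 0.33, unadjusted edgeR p-value 0.0528). The highest value was that of cKO replicate 3, the library with raised collagen and epidermis genes. Without that library the log2 fold change was 0.39, and without cKO replicate 2 it was 0.96.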

How the data were processed

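RNA was sequenced by the authors from E13.5 cortex on a DNBSEQ platform after mRNA purification, with 3 WT and 3 cKO libraries grouped by their titles. The submitters' processing notes name HISAT2 2.2.1, Bowtie2 2.4.5 and RSEM 1.3.1 and the builds GRCm38 and mm10, without roles; the annotation and strand setting are not given in the sources used here. The authors deposited estimated counts per gene as they came from the counting tool, and 10.9% of the values were not whole. The deposited TPM are scaled for length and then to a common total. The deposited FPKM are scaled for length and depth. FPKM served only to derive effective lengths, and 6 columns of averages were not used.

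Counts were rounded and filtered with filterByExpr (minimum count 10, minimum total 15), which left 13340 genes. TMM factors and the quasi-likelihood test of edgeR 4.0.16 (R 4.3.3) were used with genotype as the only term and Benjamini-Hochberg adjustment over all genes tested, at a threshold of 0.05. CPM are TMM-normalised, and the SE of a log2 fold change is its size over the square root of F. The fit was tested on simulated data. Alternatives were RLE and upper-quartile factors, 2 other filters, DESeq2 1.42.0, limma-voom and limma 3.58.1 on log2(TPM + 1) (pseudocount 1), the replicate number as a block, each library left out, and WT replicate 2 and cKO replicate 3 left out together. Corrections for length and GC content (loess span 0.3, GENCODE M21) were added after seeing the data. The members and lists were chosen with earlier results of these data known.

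Genes named were Ybx1, in each subunit the 7 genes of lowest p-value and the 3 highest and 3 lowest by TPM, 7 members with special places, 5 other mitoribosomal genes and the 2 of lowest p-value in each other list. Gene positions are from RefSeq GRCm38.p6, in which all 78 members were found. In GENCODE M21, exons of 33 of the 78 overlapped another gene, 20 of them a coding gene on the other strand, so their counts are uncertain. RefSeq also lists 6 pseudogenes named after members, none of which is a row of the table, and their reads could be split. Duplicate libraries were looked for, and any pair had equal counts in at most 1.66% of the genes tested. Libraries of the same number were not taken as pairs.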

Additional observations from a re-analysis of the deposited data

How the results depend on the processing

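All 78 members stayed above an adjusted p-value of 0.05 in each of the 17 other fits. At an unadjusted p-value under 0.05, 2 members were higher and 1 lower in limma on log2(TPM + 1) (Mrpl48, Mrpl49 and, lower, Mrpl33), 2 were higher without WT replicate 2 and cKO replicate 3 together (Mrpl49 and Mrps28), and 1 was lower with the length correction (Mrpl33). Over all genes tested, 1.85% were higher and 1.26% lower in limma on log2(TPM + 1), 0.787% higher without both libraries and 1.92% lower with the length correction. Leaving out single libraries gave from 0 to 2 higher and 0 lower. The pathway lists gave 0 genes as reported, 1 (Ppargc1b) with at least 10 counts in every library, and from 0 to 1 when single libraries were left out. The large to small ratio (0.022, log2, cKO over WT) was -0.012 from TPM. For the other settings tried, the subunit sums, the ratio and the subunit medians moved by less than the spread between replicates. Ybx1 (-2.998 as reported) passed in DESeq2 (-2.996, adjusted p-value 5.46e-10), with the GC correction (-3.02) and without both libraries (-3.49), and ranged from -3.28 to -2.75 when single libraries were left out. The cause of these changes was not tested.

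With the replicate block, 2 members (Mrpl49 and Mrpl57) were higher at an unadjusted p-value under 0.05, as were 3.58% of all genes tested, and Ybx1 changed by -2.95 (adjusted p-value 0.0381). Over all genes tested, 4.60% were lower with the block, against 1.81% without it, and the share that were higher was 1.75% without it. The deviations of same-numbered libraries correlated at 0.41, 0.31 and -0.020, in the order of their numbers. These values differed in sign and do not decide whether the numbers mark pairs. The numbers were not taken as pairs because the litter of each sample is not stated. Whether same-numbered libraries were handled together was not tested.

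Of the 43 other named genes, none passed an adjusted p-value of 0.05 in any of these fits, and the following changed sign. Mrpl17 was at 0.00037 in DESeq2, 0.00030 with RLE factors, 0.012 with upper-quartile factors, 0.0021 in limma on log2(TPM + 1) and 0.015 with the length correction. Mrps18a was at -0.0022 in limma on log2(TPM + 1), and Aurkaip1 at 0.0059 with upper-quartile factors. With the GC correction Mrpl42 was at -0.0012, Mrpl13 at -0.00031, Mrps18a at -0.028 and Mrpl12 at -0.030. With the length correction Mrpl42 was at -0.059, Mrpl13 at -0.051, Mrps31 at -0.034, Mrps18a at -0.062, Mrpl12 at -0.044, Mrpl58 at -0.010 and Chchd1 at -0.010. Without both libraries Mrps10 was at 0.024, Mrpl42 at -0.0061, Mrpl35 at 0.16, Mrps33 at 0.054, Mrps25 at 0.031, Mrps18a at -0.023, Mrps30 at 0.039, Aurkaip1 at 0.0085 and Polg2 at -0.028. With single libraries, or WT replicate 2 and cKO replicate 3 together, left out, log2 fold changes ranged from -0.18 to 0.024 for Mrps10, from -0.16 to 0.064 for Mrpl52, from -0.033 to 0.099 for Mrpl42, from -0.050 to 0.13 for Mrpl13, from -0.18 to 0.16 for Mrpl35, from -0.052 to 0.058 for Mrpl17, from -0.10 to 0.055 for Mrps33, from -0.087 to 0.18 for Mrps31, from -0.077 to 0.15 for Mrps14, from -0.12 to 0.036 for Mrps25, from -0.055 to 0.11 for Mrps18a, from -0.082 to 0.039 for Mrps30, from -0.073 to 0.12 for Mrpl12, from -0.011 to 0.14 for Mrpl58, from -0.11 to 0.27 for Chchd1, from -0.063 to 0.060 for Aurkaip1, from -0.020 to 0.14 for Tfam and from -0.028 to 0.24 for Polg2.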
